A study of Rattus norvegicus with 20 samples.

Results

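The 6 genes described here are the early response genes Ier2, Ier3, Btg2, Gadd45g, Zfp36 and Zfp36l1, several of whose products restrain growth or remove mRNA. The measurement is binding of the NF-kB subunit p65 at the promoters of these 6 genes in rat liver. They were chosen by name, with earlier results of these data known, as the promoters whose listed peaks or probes carry these symbols. They make up 6 of 14540 tiled promoters tested, 13296 of which had a gene name. All 6 were measured on every array. The chromatin came from livers of wild-type male Sprague Dawley rats aged 8 to 10 weeks, and DNA precipitated with an antibody against p65 was hybridised to promoter tiling arrays (ChIP-chip). The ethanol groups (ETOH) were fed for 5 weeks a liquid diet that drew 36% of its calories from ethanol. The carbohydrate groups (CHO) were pair-fed littermates whose diet held carbohydrate in its place. Every rat underwent a 70% partial hepatectomy, after which the remaining liver regrows. Chromatin of the 0h arrays came from the excised left lateral and median lobes, that of the 1h and 6h arrays from the remnant. Per diet there were 3, 3 and 4 arrays at 0h, 1h and 6h, 20 in all. Lobe and time therefore cannot be told apart between 0h and later times. The tissue was whole liver, so a change of p65 within a cell type and a change in the mix of cell types cannot be told apart.

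NF-kB dimers are held in the cytoplasm by inhibitor proteins until cytokines or growth signals free them, and p65 then binds promoters and enhancers within minutes. Partial hepatectomy sets off such a wave as hepatocytes leave quiescence, together with a burst of immediate early genes that need no new protein synthesis. Several of these genes act as brakes: Zfp36 and Zfp36l1 encode zinc finger proteins that bind AU-rich elements in mRNA and bring in the CCR4-NOT deadenylase, and Btg2 encodes an antiproliferative protein that binds deadenylase subunits of the same complex. Ier3 encodes a regulator of apoptosis and growth signalling, Gadd45g a growth arrest and stress sensor that binds cyclin-dependent kinase and upstream MAP kinase proteins, and Ier2 a small nuclear protein of the early growth response.

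Promoter sequences from RefSeq (build GRCr8, 250 bases before to 50 bases after the start) were matched for 5 of the 6 genes. They show the sequence around each start, not the windows whose signal is given below. Capitals mark the motifs that were found. Ier2 lies at chr19:40399123-40399422 on the + strand. Btg2 lies at chr13:48087641-48087940, Gadd45g at chr17:13530302-13530601, Zfp36 at chr1:92799059-92799358 and Zfp36l1 at chr6:104668641-104668940, all on the - strand. Each sequence reads 5′ to 3′ along its gene.
Ier2: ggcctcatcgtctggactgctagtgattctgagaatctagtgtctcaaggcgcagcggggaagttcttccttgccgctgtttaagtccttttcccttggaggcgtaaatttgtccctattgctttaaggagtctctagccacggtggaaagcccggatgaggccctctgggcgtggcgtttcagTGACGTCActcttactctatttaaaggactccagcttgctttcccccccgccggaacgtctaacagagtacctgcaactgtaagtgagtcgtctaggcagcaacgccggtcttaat
Btg2: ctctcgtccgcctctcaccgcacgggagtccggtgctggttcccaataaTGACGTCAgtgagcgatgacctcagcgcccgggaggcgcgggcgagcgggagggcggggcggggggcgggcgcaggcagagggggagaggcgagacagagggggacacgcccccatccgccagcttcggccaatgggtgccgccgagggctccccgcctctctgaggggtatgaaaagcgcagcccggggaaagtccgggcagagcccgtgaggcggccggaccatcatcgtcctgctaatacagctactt
Gadd45g: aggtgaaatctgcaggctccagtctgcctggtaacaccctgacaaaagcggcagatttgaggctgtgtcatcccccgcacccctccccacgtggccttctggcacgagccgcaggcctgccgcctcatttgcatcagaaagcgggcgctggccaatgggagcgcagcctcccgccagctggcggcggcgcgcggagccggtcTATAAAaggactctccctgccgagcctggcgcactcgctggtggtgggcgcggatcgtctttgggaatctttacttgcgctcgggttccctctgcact
Zfp36: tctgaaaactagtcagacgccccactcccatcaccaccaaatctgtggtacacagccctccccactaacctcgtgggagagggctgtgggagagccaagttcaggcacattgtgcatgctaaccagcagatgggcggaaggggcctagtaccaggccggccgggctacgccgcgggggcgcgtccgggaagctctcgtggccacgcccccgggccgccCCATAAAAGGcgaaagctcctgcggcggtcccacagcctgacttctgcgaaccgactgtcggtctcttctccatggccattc
Zfp36l1: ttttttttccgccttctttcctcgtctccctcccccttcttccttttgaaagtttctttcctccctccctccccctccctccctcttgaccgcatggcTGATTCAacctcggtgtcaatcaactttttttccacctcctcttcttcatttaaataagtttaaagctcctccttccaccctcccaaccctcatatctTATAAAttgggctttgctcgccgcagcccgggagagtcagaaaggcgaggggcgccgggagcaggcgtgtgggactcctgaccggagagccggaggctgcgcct

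Both strands were searched for the NF-kB consensus, the AP-1 motif (TGANTCA), the CRE motif (TGACGTCA), the CArG box and the TATA box motif (TATAAA). Ier2 held the CRE motif at −66 to −59 bp from the start and Btg2 held it at −201 to −194 bp, a motif present in 1.83% of the 33469 promoters of the table. Zfp36 held a CArG box, the binding motif of serum response factor, at −32 to −23 bp, against 1.64% of all promoters. Zfp36l1 held TGATTCA, a form of the AP-1 motif, at −152 to −146 bp, against 7.33% of all promoters. The TATA box motif lay at −54 to −49 bp in Zfp36l1 and at −48 to −43 bp in Gadd45g, against 14.2% of all promoters. The NF-kB consensus was in none of these 5 windows and in 7.51% of all promoters. No other match was found, motif matches did not overlap, and these sequences cover only part of each tiled promoter. The 500 bp windows from which signal is given below are bounded by probe positions, without the length of the probes. Taken so, none of the 5 sequences overlaps the window of its gene by distance from the start. The window of Gadd45g begins at 66 bp, close to the end of its sequence at 50 bp, so its nearest probe may overlap that sequence.

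Signal at a promoter means the log2 of p65-precipitated over reference DNA, averaged over the 500 bp window of each tiled promoter with the highest mean over all 20 arrays, after each array was centred on its median. Its direction is not stated in the sources used here. From 99.93% to 100.0% of the listed peaks of an array lay below 0 in the deposited values, so all values were multiplied by −1, and with the deposited sign every difference would turn. The window lay upstream of the start in Ier2 (−773 to −362 bp), Ier3 (−734 to −239 bp) and Zfp36 (−1205 to −787 bp). It lay past the start in Btg2 (366 to 861 bp), Gadd45g (66 to 548 bp) and Zfp36l1 (360 to 850 bp). In the coordinates of the deposited files, whose build is not given in the sources used here, the starts were chromosome 19, 25159275 (Ier2), chromosome 20, 3077744 (Ier3), chromosome 13, 47030745 (Btg2), chromosome 17, 19232641 (Gadd45g), chromosome 1, 83489123 (Zfp36) and chromosome 6, 103124576 (Zfp36l1). The tile of Ier3 also held Flot1, so its signal may belong to either gene.

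The arrays came from 4 array runs and 11 slides, with 2874 to 9387 listed peaks each. The first run held 5 arrays, all of 0h. The second run was 1 slide with ETOH 0h replicate 2, ETOH 1h replicate 1 and CHO 1h replicate 1. The third run held 11 arrays of 1h and 6h, and the fourth held CHO 6h replicate 1. ETOH 0h replicate 2 stood apart from its group: across probes its median correlation was 0.303 with the other 0h arrays and 0.502 with the 1h arrays. With the ETOH 1h and CHO 1h arrays on its slide it correlated at 0.760 and 0.757, and the array identifiers name the same animal for it and that ETOH 1h array. Whether its label holds was not tested, and the members' differences that use ETOH 0h are given with and without it. Identifiers of the arrays named 16 animals, 4 of them with 2 arrays.

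All 6 promoters carried less p65 at 6h than at 1h in both diets. The comparison asks how p65 binding changes between early and later regeneration. Signal was high in each member at 1h and near the array median at 6h, so that all 8 arrays of 6h lay below all 6 arrays of 1h for 6 of 6 members, an order found at 5.43% of all promoters. The differences were between −1.35 and −0.90 on the log2 scale in ETOH, and between −1.13 and −0.58 in CHO. In limma with Benjamini-Hochberg adjustment over 14540 promoters, 6 of 6 members were called lower in ETOH, against 16.1% of all promoters, and 6 of 6 in CHO, against 6.91%. The median difference of the members was −0.99 in ETOH and −0.84 in CHO, beside −0.078 and 0.067 over all promoters. Because earlier results of these data were known when the members were chosen, the shares over all promoters serve as a description.

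**Figure D1:**
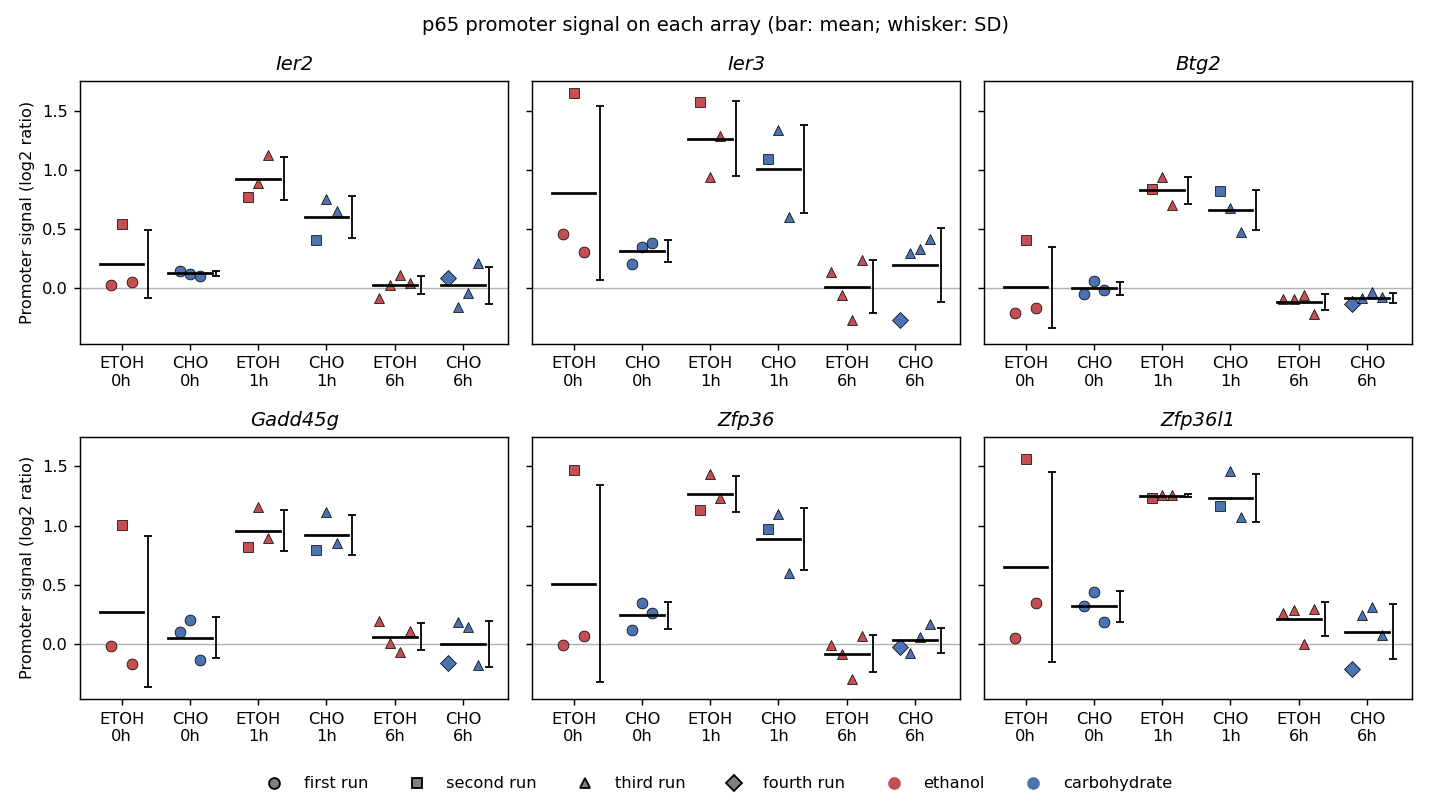
Promoter signal (log2 ratio of p65 to reference, y axis) of the 6 genes on each of the 20 arrays, by diet and time on the x axis, with 1 point per array, a bar at the group mean and a whisker of 1 SD. Marker shapes give the array run. The 1h arrays lie above all 6h arrays in each panel, and the square at ETOH 0h is replicate 2.

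Zfp36 encodes tristetraprolin, which shortens the life of cytokine and growth factor mRNAs. Its signal was −0.014, −0.09, −0.30 and 0.066 on the ETOH 6h arrays and 1.14, 1.43 and 1.24 on the ETOH 1h arrays. In CHO it was −0.026, −0.078, 0.053 and 0.17 at 6h, and 0.97, 1.10 and 0.59 at 1h. The groups did not overlap, and the highest 6h array of either diet was 0.17. The fall was −1.35 ± 0.22 in ETOH (SE, limma, adjusted p = 0.000228) and −0.86 ± 0.22 in CHO (adjusted p = 0.0056). Counted from the most negative of the 14540 promoters, the ETOH value ranked 5 and the CHO value 53.

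Zfp36l1, a close relative of tristetraprolin that also binds AU-rich elements, had a low positive signal at 6h on most arrays. The median signal over all promoters was also above 0, at 0.19 in ETOH 6h and 0.30 in CHO 6h. Zfp36l1 was at 0.26, 0.28, −0.0029 and 0.30 on the ETOH 6h arrays and 1.24, 1.26 and 1.26 on the ETOH 1h arrays. In CHO it was −0.22, 0.24, 0.31 and 0.071 at 6h, and 1.17, 1.46 and 1.07 at 1h. The lowest 1h array (1.07) stood well above the highest 6h array (0.31). The fall was −1.04 ± 0.22 in ETOH (SE, limma, adjusted p = 0.00216) and −1.13 ± 0.22 in CHO (adjusted p = 0.00101), at ranks 40 and 10 from the most negative.

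Btg2, the antiproliferative gene, had negative signal on every 6h array. It was −0.092, −0.094, −0.061 and −0.22 in ETOH 6h and 0.84, 0.94 and 0.70 in ETOH 1h. CHO arrays gave −0.14, −0.083, −0.035 and −0.074 at 6h, and 0.82, 0.68 and 0.48 at 1h. The 6h arrays of both diets lay within a narrow band and apart from every 1h array. The fall was −0.94 ± 0.12 in ETOH (SE, limma, adjusted p = 0.00011) and −0.74 ± 0.12 in CHO (adjusted p = 0.000304), ranks 81 and 105.

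Gadd45g is the gene of the Gadd45 growth arrest family among the 6, and its window began just past the start. ETOH 6h arrays had 0.20, 0.0058, −0.069 and 0.11, and ETOH 1h arrays had 0.82, 1.16 and 0.90. CHO arrays had −0.16, 0.18, 0.14 and −0.18 at 6h, and 0.79, 1.11 and 0.86 at 1h. The diets had nearly the same levels at each time, with 6h arrays on both sides of 0. The fall was −0.90 ± 0.18 in ETOH (SE, limma, adjusted p = 0.00152) and −0.92 ± 0.18 in CHO (adjusted p = 0.00102), ranks 106 and 36.

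Ier3, the apoptosis regulator, varied most between arrays at 1h. Its ETOH signal was 0.14, −0.055, −0.27 and 0.24 at 6h, and 1.57, 0.94 and 1.28 at 1h. Its CHO signal was −0.27, 0.30, 0.33 and 0.41 at 6h, and 1.09, 1.34 and 0.60 at 1h. In CHO the groups were separated by the gap between 0.41 and 0.60 alone. The fall was −1.25 ± 0.24 in ETOH (SE, limma, adjusted p = 0.000855, rank 14) and −0.82 ± 0.24 in CHO (adjusted p = 0.014, rank 69). The CHO call was lost without CHO 1h replicate 1 (adjusted p = 0.0532), without CHO 1h replicate 2 (adjusted p = 0.0789) or without CHO 6h replicate 1 (adjusted p = 0.0607).

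Ier2, the nuclear early growth response gene, had the lowest 1h level in CHO. ETOH arrays gave −0.08, 0.029, 0.11 and 0.042 at 6h, and 0.77, 0.89 and 1.12 at 1h. CHO arrays gave 0.083, −0.16, −0.041 and 0.21 at 6h, and 0.41, 0.75 and 0.65 at 1h. No array of 6h reached the lowest of 1h. The fall was −0.90 ± 0.13 in ETOH (SE, limma, adjusted p = 0.000157) and −0.58 ± 0.13 in CHO (adjusted p = 0.00326), ranks 100 and 309.

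**Figure D2:**
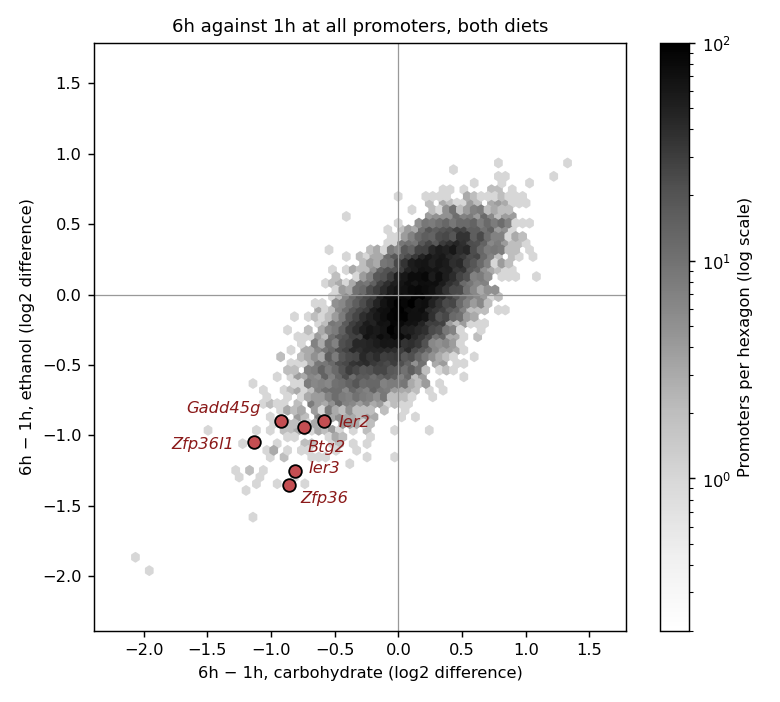
Difference in promoter signal between 6h and 1h (log2) at all 14540 promoters, in ethanol (y axis) against carbohydrate (x axis), with darker hexagons holding more promoters and the 6 genes as red points. The genes lie at the lower left edge, between −1.35 and −0.90 in ethanol and between −1.13 and −0.58 in carbohydrate.

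The third run, and 2 slides within it, held both 6h and 1h arrays of a diet, so the fall could be measured there. In the third run alone, an alternative added after the data were seen, 6 of 6 members were called lower in each diet, against 24.6% of promoters in ETOH and 5.36% in CHO. Slide 6 carried ETOH 6h replicate 1 and ETOH 1h replicate 3, and there the members differed by −1.25 to −0.70, beside a median of −0.15 over all promoters. Slide 5 carried CHO 6h replicate 2 and CHO 1h replicate 2, with members at −1.22 to −0.76 beside a median of 0.019. With the array run as a term in the fit, 6 of 6 members were again called lower in both diets, against 21.4% of promoters in ETOH and 5.02% in CHO. Averaged over all probes within 5 kb of the start, the fall was smaller and still called for 6 of 6 members, at −0.84 to −0.34 in ETOH and −0.72 to −0.21 in CHO. That average called many more promoters, 6665 in ETOH and 5028 in CHO, against 3463 and 3497 with the window signal. These counts hold both directions. Being called under that average therefore sets the members less apart from other promoters.

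Levels at 1h stood high among promoters. The members' mean signal lay between the 98.03 and 99.93 percentile of all promoters in ETOH 1h and between the 95.29 and 99.94 percentile in CHO 1h. At 6h they lay between the 2.34 and 53.95 percentile in ETOH and between the 2.91 and 29.74 percentile in CHO. Btg2 was lowest among the 6 in both 6h groups. In ETOH 1h the group means ran, from highest to lowest, Zfp36 1.27 ± 0.15, Ier3 1.27 ± 0.32, Zfp36l1 1.25 ± 0.014, Gadd45g 0.96 ± 0.18, Ier2 0.93 ± 0.18 and Btg2 0.83 ± 0.12 (SD, n = 3). Neighbours in that order differed by less than the larger of their SDs, except Zfp36l1 and Gadd45g. In CHO 1h they ran Zfp36l1 1.23 ± 0.20, Ier3 1.01 ± 0.38, Gadd45g 0.92 ± 0.17, Zfp36 0.89 ± 0.26, Btg2 0.66 ± 0.17 and Ier2 0.60 ± 0.18 (SD, n = 3). There no neighbours differed by more than the larger of their SDs. Probes of different promoters differ in their response, so this order describes the arrays and not occupancy.

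The signal at 1h was placed differently along the 6 genes. In bins of 500 bp with at least 3 probes, ETOH 1h and CHO 1h were both highest just before the start in Ier2 (−500 to 0 bp, 0.99 and 0.63) and in Ier3 (1.26 and 1.13). They were highest at 500 to 1000 bp past the start in Btg2 (0.78 and 0.53) and Zfp36l1 (1.28 and 1.32). Gadd45g was at a like level from 0 to 500 bp (1.00 and 0.93) and from 500 to 1000 bp (0.96 and 1.04). At Zfp36 signal was spread along both sides of the start and into a neighbouring tile. It was highest at −1000 to −500 bp in ETOH 1h (1.21, against 0.78 in CHO 1h) and at 3000 to 3500 bp in CHO 1h (0.97, beside 1.17 in ETOH 1h). Averaged over both diets, signal was lower at 6h than at 1h in 16 of 16 bins of Zfp36, 10 of 10 of Zfp36l1 and 11 of 11 of Gadd45g. It was lower in 7 of 9 bins of Ier2, 11 of 13 of Ier3 and 9 of 11 of Btg2. Bins hold neighbouring probes, which share DNA fragments and are not independent.

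**Figure D3:**
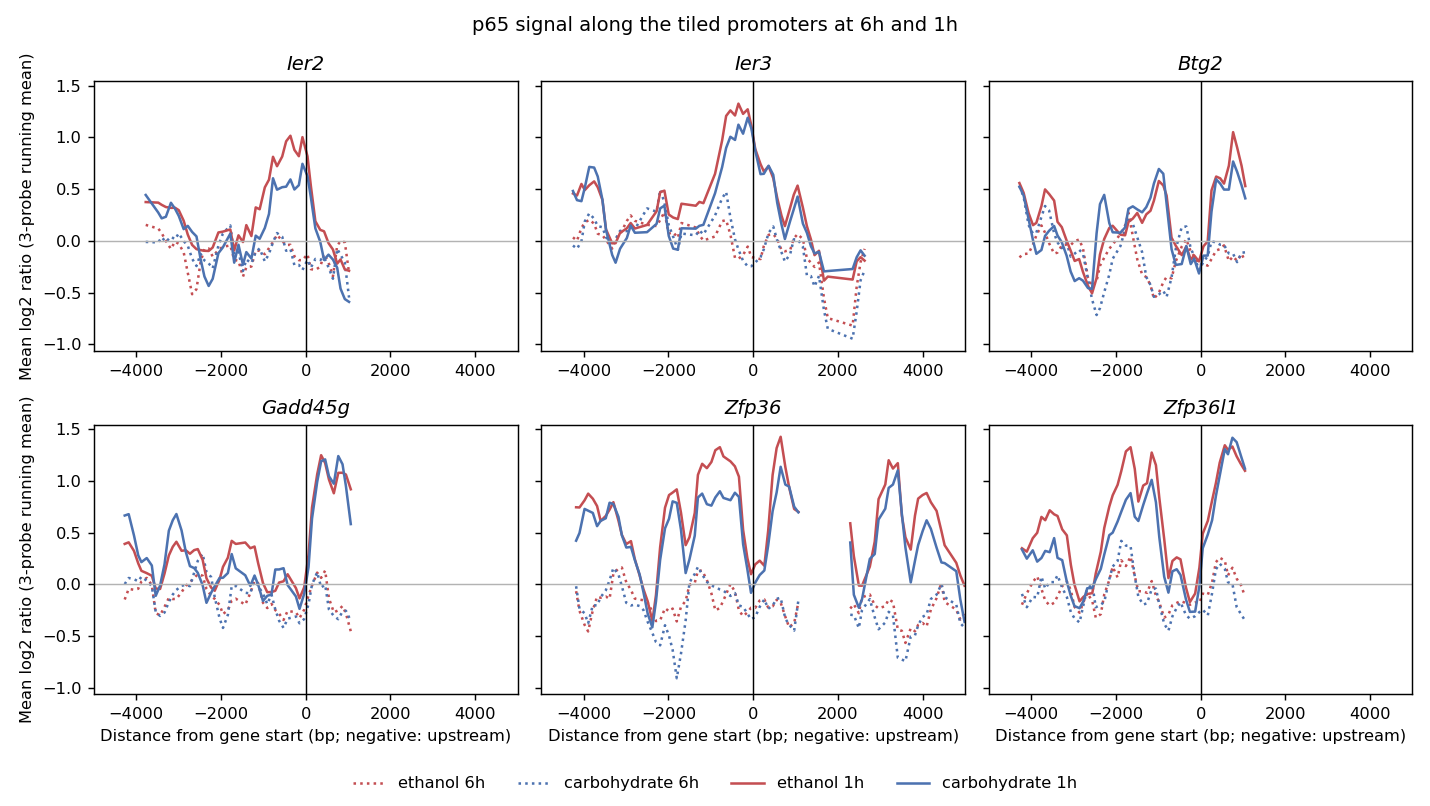
Mean log2 ratio (3-probe running mean, y axis) by distance from the gene start (x axis, bp) at 6h (dotted) and 1h (solid) in ethanol (red) and carbohydrate (blue), with lines broken where no probes were tiled. At 1h signal is highest just upstream of the start in Ier2 and Ier3 and past the start in Btg2, Gadd45g and Zfp36l1, while the 6h lines stay near or below 0 there.

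The authors called peaks on each array, a second reading of the same hybridisations. Of the 18 pairs of member and array in ETOH 1h, 18 had a listed peak, and 17 of 18 had one in CHO 1h, Ier2 on CHO 1h replicate 1 being without. At 6h, 1 of 24 pairs had a peak in ETOH, at Zfp36l1 on replicate 4, and 0 of 24 in CHO. At 0h, 7 of 18 pairs had one in ETOH and 5 of 18 in CHO. Of the 7 in ETOH 0h, 6 came from replicate 2, so 1 of 12 remained without it. All 6 members had a peak on every array of ETOH 1h and 5 did in CHO 1h, against 15.6% and 11.4% of 14368 genes in any list. No member had one on every array of ETOH 6h or CHO 6h, against 6.73% and 11.6% of genes, or of ETOH 0h or CHO 0h, against 4.03% and 5.86%. In ETOH 6h 5 members, and in CHO 6h 6 members, had no peak on any array, against 46.5% and 40% of genes. The highest peak score of a 1h array, a value of the authors, had its median at 1.21 in Zfp36l1, 1.17 in Zfp36, 1.13 in Ier3, 0.889 in Gadd45g, 0.725 in Ier2 and 0.704 in Btg2.

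**Figure D4:**
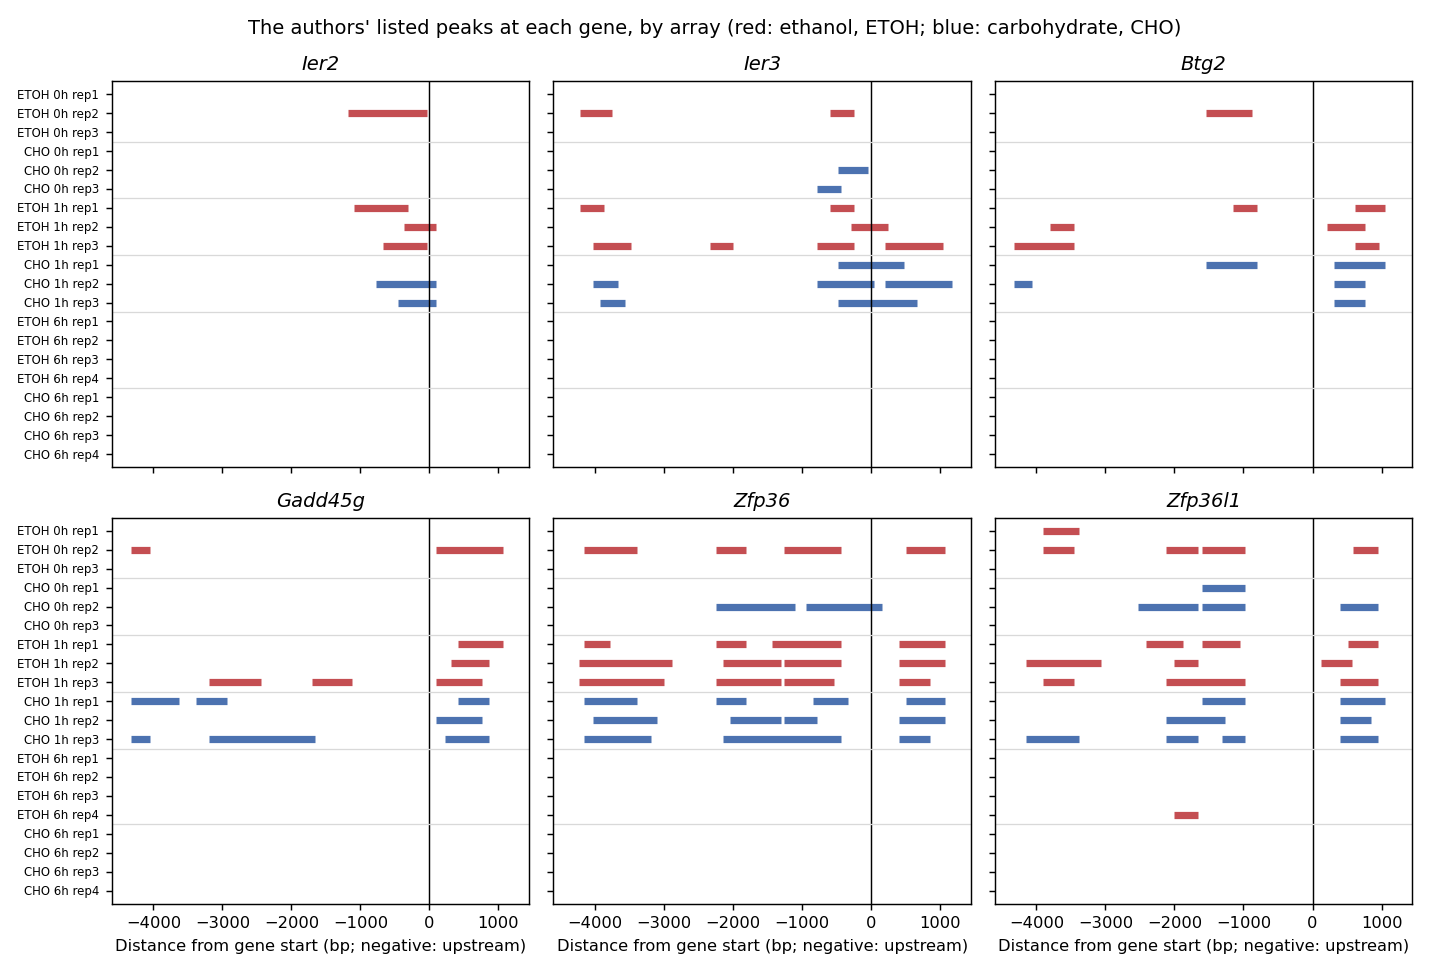
Listed peaks (horizontal bars) at each gene by distance from its start (x axis, bp), with 1 row for each of the 20 arrays, grouped by time with ethanol (red) above carbohydrate (blue). Bars fill the 1h rows, 1 bar is seen at 6h, and at 0h most of the ethanol bars belong to replicate 2.

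Between 0h and 1h fewer members passed the test. The 0h and 1h arrays came from different runs, apart from the second run, and ETOH 0h replicate 2 was high at all 6 genes. In CHO, where 8.64% of promoters were called higher, 4 of 6 members rose at 1h (limma, adjusted over all promoters). Zfp36l1 was higher at 1h by 0.92 ± 0.24 (SE, adjusted p = 0.0175), with 0.32, 0.44 and 0.19 on the 0h arrays. Gadd45g was higher by 0.87 ± 0.20 (adjusted p = 0.00866), with 0h arrays at 0.096, 0.20 and −0.14. These 0h arrays all lay below every 1h array of CHO, as they did for the other members, an order found at 21.4% of all promoters.

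Btg2 was higher at 1h in CHO by 0.66 ± 0.13 (SE, limma, adjusted p = 0.00468), with −0.048, 0.059 and −0.019 at 0h. Ier2 was higher by 0.48 ± 0.14 (adjusted p = 0.0312), with 0.15, 0.12 and 0.10 at 0h. Both had 0h arrays close together. Zfp36 differed by 0.65 ± 0.23 (adjusted p = 0.0642), with 0.12, 0.35 and 0.26 at 0h. Ier3 differed by 0.70 ± 0.25 (adjusted p = 0.0692), with 0.20, 0.35 and 0.38 at 0h. Neither of these passed the threshold.

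In ETOH, where 0.248% of promoters were called higher, 2 of 6 members rose at 1h. Btg2 was higher by 0.82 ± 0.13 (SE, limma, adjusted p = 0.00329), with −0.21, 0.40 and −0.16 on the ETOH 0h arrays. Ier2 was higher by 0.72 ± 0.14 (adjusted p = 0.0222), with 0.023, 0.54 and 0.054 at 0h. In both, the high value at 0h is replicate 2. The other 4 had 0h values of −0.021, 1.00 and −0.17 (Gadd45g), 0.46, 1.65 and 0.31 (Ier3), −0.011, 1.47 and 0.065 (Zfp36), and 0.045, 1.57 and 0.34 (Zfp36l1). For these, replicate 2 lay above at least 1 of the ETOH 1h arrays, and the differences of 0.46 to 0.76 did not pass (adjusted p from 0.0916 to 0.366). Without ETOH 0h replicate 2, 6 of 6 members were called higher, by 0.88 to 1.24, against 7.4% of promoters.

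With the array run as a term, 0 of 6 members were called in either diet for 1h against 0h, where 0.055% of promoters were called higher and 0.0825% lower in ETOH, and 0% and 0.0344% in CHO. The estimates then lay between −0.35 and 0.51 in ETOH and between −0.82 and 0.16 in CHO, so most turned negative. That fit links 1h with 0h only through the second run, where ETOH 1h replicate 1 and ETOH 0h replicate 2 came from 1 animal and 1 slide. On that slide the members differed by −0.34 to 0.43 between 1h and 0h, with 2 of 6 higher. The part of run and slide in the rise was not tested further.

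Levels at 6h did not differ from those at 0h past the threshold. No member was called at 6h against 0h in ETOH (0.626% of promoters were called lower and 0.371% higher) or in CHO (2.02% lower, 18.6% higher). The differences lay between −0.79 and −0.12 in ETOH, with adjusted p from 0.0772 to 0.588, and between −0.21 and −0.056 in CHO, with adjusted p from 0.506 to 0.856. At an unadjusted p under 0.05, 2 members were lower in ETOH, Ier3 and Zfp36, and 0 in CHO. Without ETOH 0h replicate 2, Ier3 was at −0.37 against −0.79 with it, and Zfp36 at −0.11 against −0.59. Without that array Ier2 was at −0.013, while Btg2, Zfp36l1 and Gadd45g were at 0.07, 0.015 and 0.16, the opposite sign. With run as a term 5 members were called lower in ETOH and 3 in CHO, against 3.45% of promoters lower in ETOH and 0.234% in CHO. The estimates were then −1.59 to −0.39 in ETOH and −1.67 to −0.53 in CHO. In both diets that fit links 6h with 0h only through ETOH 0h replicate 2, the only 0h array outside the first run.

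No difference between the diets passed the threshold at any member. In the comparison of ETOH with CHO, the question in the title of the series, 0 of 14540 promoters (0%) were called by limma at 0h, 1h or 6h. At 1h, where same-numbered ETOH and CHO arrays shared a slide, 11 promoters were called with the replicate block, 6 with slide as a random block and 47 with run as a term, with 0 members in each. At an unadjusted p under 0.05 there were 1106, 1189 and 1590 promoters at those times, and 0, 1 and 0 members. The 1 member was Ier2 at 1h, with ETOH higher by 0.32 (95% interval 0.032 to 0.62, adjusted p = 0.553). Zfp36 at 1h was higher in ETOH by 0.38 (interval −0.091 to 0.85, adjusted p = 0.683). Within the 3 shared slides ETOH was higher each time at 4 of the 6 members. The differences were 0.16, 0.34 and 0.64 for Zfp36, 0.36, 0.14 and 0.47 for Ier2, 0.018, 0.26 and 0.23 for Btg2, and 0.024, 0.043 and 0.041 for Gadd45g. Those of Ier3 and Zfp36l1 had both signs. Over all promoters the median difference on these slides was −0.020, −0.062 and 0.19, so Gadd45g lay below it on the last. How many promoters were higher in ETOH on every slide was not counted. Ier3 differed by 0.26 (interval −0.26 to 0.78) and Btg2 by 0.17 (interval −0.10 to 0.44). Gadd45g and Zfp36l1 differed by 0.036 and 0.021, with intervals of −0.36 to 0.44 and −0.47 to 0.51. The intervals at 1h therefore do not show that the diets were alike.

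At 6h the diet differences lay between −0.18 and 0.11 for the 6 genes. The widest interval was that of Ier3, −0.63 to 0.27. The 0h differences lay between 0.012 and 0.49, and without ETOH 0h replicate 2 they were −0.09 for Ier2, −0.19 for Btg2, −0.21 for Zfp36, −0.12 for Zfp36l1, −0.15 for Gadd45g and 0.07 for Ier3, which was at 0.49 with it. The diet difference in the fall between 1h and 6h was tested as an interaction and called at 0 of 14540 promoters (2044 at an unadjusted p under 0.05, with 0 members). It was −0.49 ± 0.31 for Zfp36, −0.44 ± 0.34 for Ier3, −0.32 ± 0.19 for Ier2, −0.20 ± 0.17 for Btg2, 0.087 ± 0.32 for Zfp36l1 and 0.028 ± 0.26 for Gadd45g (SE, limma, adjusted p from 0.444 to 0.972). In the third run alone Zfp36 was at −0.62 (adjusted p = 0.0454), where 10.5% of promoters were called lower. The diet difference in the rise between 0h and 1h was called at 0 of 14540 promoters, with 1371 at an unadjusted p under 0.05 and 0 members. Without ETOH 0h replicate 2 it lay between 0.14 and 0.60 for the 6 members, against −0.32 to 0.24 with it, and 0 were called.

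**Figure D5:**
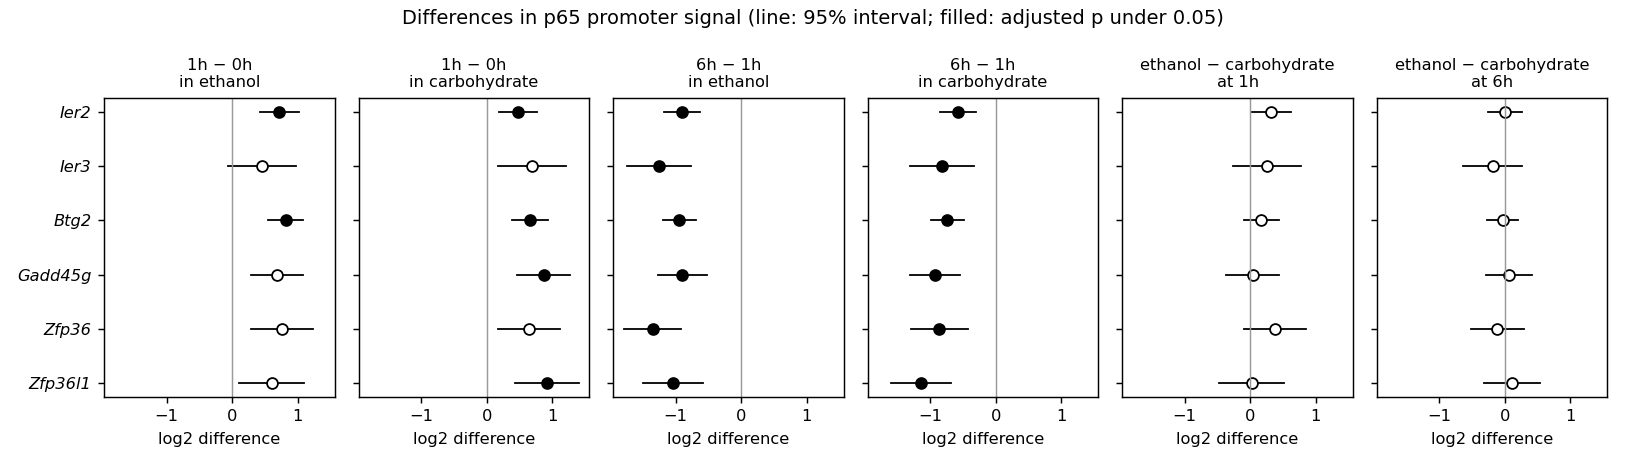
Differences in promoter signal (log2, x axis) with 95% intervals for the 6 genes in 6 comparisons, filled where the adjusted p was under 0.05. All 6 genes are filled and below 0 for 6h against 1h in both diets, 2 and 4 are filled for 1h against 0h, and none for ethanol against carbohydrate.

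Signal at the 6 promoters was correlated. Over the 20 arrays, Pearson's r between members was 0.788 to 0.963 with a median of 0.903 (15 pairs), as a description of arrays that share runs, slides and a centring step. These arrays include the 1h and 6h groups, between which all 6 members fell, so r also reflects that fall. The highest r between members was that of Zfp36l1 with Gadd45g. Promoters most like each member by Pearson's r over 20 arrays were then sought among those with a single gene name, leaving out the 6 members. They were Sdc4 for Zfp36 (0.962), Cldn3 for Ier3 (0.956), Slc25a15 for Btg2 (0.954), Errfi1 for Zfp36l1 (0.950), Igfbp1 for Gadd45g (0.950) and Insig1 for Ier2 (0.937). Insig1 was among the 3 most like for both Ier2 and Btg2, and Igfbp1 for both Gadd45g and Zfp36l1. Sdc4 encodes a syndecan of the cell surface, Errfi1 an inhibitor of the EGF receptor, Igfbp1 a binding protein of insulin-like growth factors made by hepatocytes, and Insig1 a regulator of sterol synthesis.

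Of 8 relatives of the members that were measured, 5 were called lower at 6h against 1h in ETOH (16.1% of all promoters) and 1 in CHO (6.91%), with medians of −0.59 and −0.070. In ETOH the strongest were Tob1 at −0.76 and Gadd45b at −0.75, an antiproliferative relative of Btg2 and a stress sensor of the Gadd45 family. Gadd45b was the 1 called in CHO, at −0.67. Zfp36l2, another AU-rich element binding protein of the family, was at −0.53 in ETOH (adjusted p = 0.00322) and at −0.061 in CHO (adjusted p = 0.749). Whether ETOH and CHO differed was tested at each promoter as the interaction, and 0 of the 8 were called.

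Feedback inhibitors of growth and cytokine signalling had 9 of 24 called lower in ETOH and 3 of 24 in CHO, where 2 were called higher. Over all promoters 16.1% were called lower and 7.73% higher in ETOH, and 6.91% lower and 17.1% higher in CHO. The list's medians were −0.28 and −0.054. Cish, among those called lower in ETOH, shared its tile with Mapkapk3. Errfi1 was at −1.98 in ETOH and −1.94 in CHO. Spry2, an inhibitor of receptor tyrosine kinase signalling, was at −0.86 in ETOH, and Socs3, an inhibitor of cytokine receptor signalling, was at −0.71 in CHO. Those called higher in CHO were Rgs1 at 0.70 and Nfkbia at 0.50, and Nfkbia encodes the IkB alpha inhibitor of NF-kB itself.

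The Zfp36 and Btg proteins act through deadenylation, decapping and exonuclease decay. The shares of all promoters to set beside these lists are 16.1% lower and 7.73% higher in ETOH, and 6.91% lower and 17.1% higher in CHO. Of 13 deadenylase and poly(A)-binding genes, 1 was called lower in ETOH, Pabpc4 at −0.62, and 0 in CHO, where Cnot3 (0.44) and Pan2 (0.35) were called higher. Their medians were −0.14 and 0.14. Of 20 decapping and exonuclease genes, 4 were called lower in ETOH and 1 in CHO, with 1 higher, at medians of −0.19 and 0.033. Lsm4, of the ring that binds decapping intermediates, was at −0.62 in ETOH and −0.35 in CHO. Skiv2l, the helicase of the exosome pathway, was at −0.56 in ETOH, and Lsm3 was the 1 called higher in CHO, at 0.36. The tile of Pan2 also held Il23a, that of Lsm3 held Xpc, and that of Exosc5, called lower in ETOH, held Bckdha. Signal there may belong to either gene. Of 11 other RNA-binding genes, 3 were called lower in ETOH and 1 in CHO, with 1 higher, at medians of −0.29 and −0.12. Elavl1, which encodes the mRNA-stabilising protein HuR, was at −0.47 in ETOH and −0.63 in CHO. Pum2, a repressor of mRNA translation, was at −0.32 in ETOH, and Tia1 was the 1 higher in CHO, at 0.43.

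Other immediate early genes had 11 of 22 called lower in ETOH (16.1% of all promoters) and 7 of 22 in CHO (6.91%). In CHO 1 was called higher (17.1% of all promoters). Their medians were −0.49 and −0.24. Egr1, a zinc finger transcription factor, was at −1.86 in ETOH and −2.08 in CHO, and Junb, a subunit of AP-1, was at −1.03 in ETOH. Jun, another AP-1 subunit, was at −0.98 in CHO, and Egr3 was the 1 called higher there, at 0.69. At 1h against 0h, 2 of the 22 were called higher in ETOH and 5 in CHO, against 0.248% and 8.64% of all promoters.

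Promoters of cell type markers were counted for 6h against 1h, as binding and not as expression. Of all promoters, 16.1% were called lower and 7.73% higher in ETOH, and 6.91% lower and 17.1% higher in CHO. The lists hold 3 to 9 measured promoters each and were not tested as sets. Of 7 hepatocyte markers, 4 were called lower in ETOH and 2 in CHO, with 1 higher there. The hepatocyte medians were −0.45 in ETOH and 0.092 in CHO, beside −0.078 and 0.067 over all promoters. Kupffer cell and macrophage markers had 0 of 7 called lower in ETOH and 1 of 7 in CHO, with 1 higher. Of 9 lymphocyte and neutrophil markers, 0 were lower in either diet, while 1 was higher in ETOH and 4 in CHO. Of 6 stellate cell markers, 1 was lower and 1 higher in ETOH, and 1 lower and 2 higher in CHO. Sinusoidal endothelium had 0 of 3 called in either diet, and cholangiocytes had 0 of 3 in ETOH and 1 of 3, higher, in CHO. The part of cell mix in the members' fall was not tested.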

How the data were processed

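p65 binding was measured on 20 NimbleGen promoter tiling arrays, 1 per sample. Per the channel labels Cy5 held precipitated and Cy3 input DNA, while the labelling text names IgG-precipitated DNA, so which of them served as reference stayed unsettled. Each array's diet, time and replicate number came from its title, and its description gives the same time, while the source label names 0h and replicate 1 on all 20 samples. Run, slide and animal were read from array identifiers, which name a different animal for each array of a group. The labels themselves name no animals, so p-values measure the spread between these samples.

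The authors deposited 1 log2 ratio per probe, for 713735 probes, with medians of −0.0249 to 0.017 by array. Their normalization, peak caller and genome build are not given in the sources used here. Per the file headers, the authors' peak lists hold a score for each peak and its false discovery rate (a p-value type measure, at most 0.19961). Across peaks, score and deposited value correlated at r from −0.822 to −0.627, so the sign was turned.

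Each array was centred on its median. Probes were joined into regions split at gaps over 1000 bp, and signal was the mean of the strongest 500 bp window (by its average over all arrays, at least 4 probes) at 14540 of 14723 regions. Names came from 13678 of 14678 accessions matched to RefSeq (GRCr8). Group means were fitted in limma 3.58.1 (R 4.3.3; lmFit, contrasts.fit, eBayes with trend) on all 20 arrays, two-sided, with Benjamini-Hochberg adjustment over all promoters at 0.05. Each SE and 95% interval of a difference comes from that fit. Python 3.11.15, numpy 2.4.6, pandas 2.3.3 and matplotlib 3.10.9 were used. The fit was tested on simulated data. The number of arrays limits the precision. Alternatives were the mean of probes within 5 kb, equal spread, quantile normalization, run as a term, slide as a random block, a replicate block, each array left out, and, added after the data were seen, the third run alone and animal as a random block.

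The members, lists and tests were chosen with earlier results of these data known. All 6 members are described, and from each list the 2 largest called differences were named, besides genes singled out after their values were seen (Zfp36l2, and small counts of calls). Replicate numbers were checked as pairs by the correlation of deviations from group means. Only for ETOH against CHO at 1h did every pair exceed 0.1 (0.504, 0.191 and 0.280), where each pair shared a slide.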

Additional observations from a re-analysis of the deposited data

Results flagged for a closer look

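In the 12 groups of 4 arrays examined (6 genes in ETOH 6h and CHO 6h), 1 array lay far from its group: Zfp36l1 on ETOH 6h replicate 3, at −0.0029, while the other 3 arrays lay between 0.26 and 0.30. Its gap to the nearest array was 0.871 of the group's range. Chance alone sets such a mark on about 1 in 20 groups.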

How the results depend on the processing

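For 6h against 1h, 6 of 6 members stayed called in ETOH under every alternative, and 5 or 6 in CHO, where Ier3 was lost without CHO 1h replicate 1 or 2 or CHO 6h replicate 1. Of 1008 alternative values of the 66 member differences, 885 kept direction and side of the threshold, 24 fell short of it, 27 newly passed it and 72 changed sign, none of these for 6h against 1h in either diet. The causes were not tested, beyond the smaller number of arrays. Under the false discovery rate of 0.05, pairs of member and array with a peak were 4 in ETOH 0h, 2 in CHO 0h and 0 in ETOH 6h.

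Numbers of members called moved as follows. For 1h against 0h in ETOH (2), equal spread gave 4, run as a term 0, the replicate block 0, and leaving out single arrays 0 to 6 (0 without ETOH 0h replicate 3, 6 without replicate 2, 4 without ETOH 1h replicate 1, and 1 without ETOH 0h replicate 1 or ETOH 1h replicate 2 or 3). In CHO (4), run as a term gave 0 and single arrays 1 to 5 (1 without CHO 1h replicate 2, 2 without CHO 0h replicate 3). For 6h against 0h in ETOH (0), equal spread and quantile normalization gave 1, run as a term 5 and single arrays 0 to 2 (2 without ETOH 0h replicate 3), and in CHO (0) run as a term gave 3. The third run alone gave 1 for the diet difference in 6h against 1h. For the pairs of ETOH and CHO at 1h, the replicate block gave 0 members called, as without it. For Gadd45g at 6h against 0h in CHO it gave 0.0025.

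Signs turned with run as a term for ETOH against CHO at 0h in Ier2 (−0.09), Btg2 (−0.19), Zfp36 (−0.21), Zfp36l1 (−0.12) and Gadd45g (−0.15). These are also the values without ETOH 0h replicate 2, the only 0h array outside the first run. With run as a term, signs also turned for 1h against 0h in ETOH in Ier3 (−0.19), Zfp36 (−0.23), Zfp36l1 (−0.35) and Gadd45g (−0.18). For 1h against 0h in CHO they turned in Ier2 (−0.20), Ier3 (−0.38), Zfp36 (−0.82), Zfp36l1 (−0.50) and Gadd45g (−0.36). The diet difference in that rise turned in Ier3 (0.19), Zfp36l1 (0.14) and Gadd45g (0.18), again the values without ETOH 0h replicate 2. That in the fall turned in Zfp36l1 (−0.019) and Gadd45g (−0.03). With equal spread, Ier2 (−0.01) and Btg2 (−0.10) turned at 0h and Gadd45g (0.019) in the diet difference of the rise. With quantile normalization, Btg2 turned at 0h (−0.05), and Zfp36l1 (−0.18) and Gadd45g (−0.08) at 1h. With probes within 5 kb, ETOH against CHO turned in Ier2 at 0h (−0.0072) and, at 6h, in Ier2 (−0.0061), Ier3 (0.01), Zfp36 (0.06) and Gadd45g (−0.014). The diet difference of the rise then turned in Zfp36 (−0.06) and Zfp36l1 (0.04), and of the fall in Zfp36l1 (−0.16) and Gadd45g (−0.04). Slide as a block turned Ier2 at 6h (−0.0053), and the third run alone Zfp36l1 at 1h (−0.0044) and Gadd45g in the fall (−0.03).

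Leaving out single arrays, ETOH against CHO ranged at 0h over −0.09 to 0.17 (Ier2), −0.19 to 0.12 (Btg2), −0.21 to 0.53 (Zfp36), −0.12 to 0.64 (Zfp36l1) and −0.15 to 0.44 (Gadd45g). At 1h it ranged over −0.06 to 0.14 (Zfp36l1) and −0.06 to 0.13 (Gadd45g), and at 6h over −0.06 to 0.07 (Ier2). For 6h against 0h it ranged in ETOH over −0.24 to 0.07 (Btg2), −0.75 to 0.015 (Zfp36l1) and −0.43 to 0.16 (Gadd45g), and in CHO over −0.19 to 0.04 (Ier3) and −0.15 to 0.017 (Gadd45g). The diet difference of the rise ranged over −0.49 to 0.19 (Ier3), −0.15 to 0.60 (Zfp36), −0.62 to 0.14 (Zfp36l1) and −0.40 to 0.18 (Gadd45g), and that of the fall over −0.03 to 0.17 (Zfp36l1) and −0.07 to 0.13 (Gadd45g).

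Over all promoters, 6h against 1h in ETOH called 3463, and 6665 with probes within 5 kb. For 1h against 0h, 40 were called in ETOH and 1614 in CHO, with run as a term 20 and 5, with the replicate block 2 and 574, and with probes within 5 kb 564 and 5106. Single arrays left out gave 1 to 1263 in ETOH (1 without ETOH 0h replicate 3, 1232 without ETOH 0h replicate 2, 1263 without ETOH 1h replicate 1) and 306 to 1330 in CHO (306 without CHO 1h replicate 2). For 6h against 0h, 145 were called in ETOH and 2999 in CHO, with run as a term 574 and 52, and with single arrays left out 0 to 1297 (1297 without ETOH 0h replicate 3) and 507 to 4165 (507 without CHO 0h replicate 2, 4165 without CHO 0h replicate 3). For 6h against 1h, 3463 and 3497 were called, and as few as 2030 without ETOH 1h replicate 3 and 2020 without CHO 1h replicate 1. ETOH against CHO called 0 at 0h, and up to 4 with single arrays left out. At 1h and 6h it called 0, against 358 and 262 in the third run alone, 47 and 0 with run as a term, 6 and 0 with slide as a block, 11 and 21 with the replicate block, and, at 1h, 183 without ETOH 1h replicate 1. The diet difference in 6h against 1h called 0, against 1615 in the third run, 224 with run as a term, 20 with the replicate block and 578 without ETOH 1h replicate 1, and that in 1h against 0h called 0, against 92 without the same array. Among the calls of these diet comparisons 1 was at a member, Zfp36 in the third run.

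The share of higher calls moved with the scaling. For 6h against 1h in ETOH it was 32.5%, against 44.3% with equal spread and 50.6% with quantile normalization. For 1h against 0h in CHO it was 77.8%, against 55.6% and 67.2%, and for 6h against 0h in CHO 90.2%, against 72.1% with equal spread.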
